A study of Sus scrofa with 3 samples.

Results

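The comparison of liver DNA methylation between the Large White pig and the Chinese wild boar covered every row on chromosomes 1 to 18 of the tables that list differentially methylated CG sites and regions for this pair of breeds. On these chromosomes 19148 of the 24483 listed sites and 5434 of the 6798 listed regions of the pair were found. Over all 3 pairs of breeds in the series, the tables listed 89093 sites and 25044 regions. No row was selected by a statistic of the authors.

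A methyl group on the cytosine of a CG dinucleotide is the main form of DNA methylation in mammals. Most CG sites of a mammalian genome are methylated in most cells, whereas dense runs of CG sites at gene starts, called CG islands, are usually free of it. The methylation level of a site in a tissue is the share of its DNA copies that carry the mark, so that an intermediate level can come from a mixture of alleles or of cells. In the liver, most of the DNA comes from hepatocytes, with smaller parts from endothelial, immune and stellate cells.

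Whole-genome bisulfite sequencing had been done on liver DNA of 3 breeds, with 1 methylome for each breed. The Large White pig is a commercial breed of European origin, and the other methylome used here came from Chinese wild boar. All liver samples came from males at an age of 90 days, and libraries were amplified with 12 PCR cycles. Enshi black pig, a Chinese domestic breed, was the third methylome, and its levels are given only beside regions of the pair. They were at hand only where Enshi black pig was itself listed as different from Large White or wild boar.

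With 1 methylome for each breed no difference could be tested, and breed, domestication, geographic origin and the individual animals cannot be told apart. The sources describe 3 male pigs without saying whether their DNA was pooled. Read depth behind the levels is unknown, and the identity of the tissue could not be checked against liver markers, since no expression values were used. The rows were listed by the authors because the breeds differed there. Differences and directions below are therefore descriptions of the list, not evidence that the breeds differ.

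A level is the estimated percent of methylated copies at a site or over a region, and a difference is given in percentage points (points). At the 9502 sites where Large White was higher, its median level was 91.8% against 27.9% in wild boar. At the 9646 sites where wild boar was higher, the medians were 30.4% in Large White and 94.9% in wild boar. The 2 directions were thus near mirror images, and their median differences were 57.8 and 57.9 points. Regions differed less than sites, but the 2 lists had unlike floors. The smallest listed difference was 29.0 points for a site and 0.840 points for a region. Among the 2664 regions higher in Large White, the median levels were 86.2% and 45.0% in wild boar, and among the 2770 regions higher in wild boar they were 48.7% and 88.3%.

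A rule of size of at least 40 points was met by 16920 sites, 88.4% of those listed, with 43.9% of all sites higher in Large White and 44.5% higher in wild boar. It was met by 1881 regions, or 34.6%, with 17.4% of all regions higher in Large White and 17.2% higher in wild boar. The median difference of a region was 33.4 points, with an interquartile range of 24.9 to 45.0 points. Only 356 regions, or 6.55%, differed by under 20 points. At the other end, 36 regions differed by at least 80 points, and 5 of these held at least 10 CG sites.

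The usual region contrasted a highly methylated breed with a breed of intermediate level. Calling a level under 25% low and one above 75% high, 3546 regions (65.3%) paired a middle with a high level, and 1046 regions (19.2%) lay between 25% and 75% in both breeds. A low level was paired with a middle one in 448 regions (8.24%). Full contrasts of a low with a high level made up 280 regions (5.15%), of which 131 were high in Large White and 149 in wild boar. Both breeds were above 75% in 110 regions, and both were under 25% in only 4. Listed sites held more of the full contrasts, with 5625 of them (29.4%) pairing a low with a high level.

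**Figure D1:**
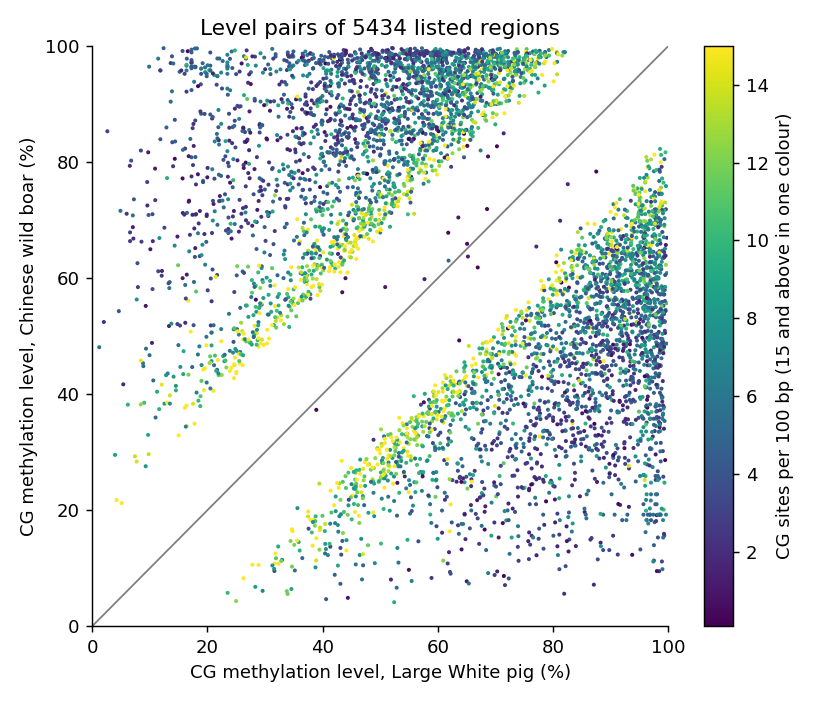
Methylation levels of the 5434 listed regions, with Large White on the x axis and Chinese wild boar on the y axis, both in percent. Each point is 1 region, coloured by its number of CG sites per 100 bp, and the line marks equal levels. Points rich in CG lie along the inner edges of the 2 clouds, and points poor in CG lie further from the line and towards high levels in 1 breed.

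In the plot of level pairs an almost empty band runs along the line of equal levels, and the regions nearest to this band are those dense in CG. The few points inside the band were regions of small mean difference, described further below.

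Among regions of at least 10 CG sites, the largest excess in Large White was on chromosome 5 from 9759202 to 9759538 (build Sscrofa10.2). Its 10 CG sites had a level of 97.9% in Large White and 18.1% in wild boar, and Enshi black pig had 93.2% in its own comparison with wild boar. A region on chromosome 12 from 45511248 to 45511474 packed 24 CG sites into 227 bp, with 99.2% in Large White, 20.1% in wild boar and 82.7% in Enshi black pig. Near-complete methylation in 1 breed thus faced about 20% in the other. The other 3 leading regions in this direction were on chromosome 1 from 82227150 to 82227364 (97.6% against 17.9%), chromosome 17 from 68083569 to 68083688 (98.8% against 20.3%) and chromosome 11 from 2240666 to 2240982 (96.4% against 19.2%). Enshi black pig had 72.4% at the one on chromosome 1 and 93.2% at the one on chromosome 17, and no value at the one on chromosome 11.

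In the opposite direction, the region on chromosome 15 from 62172521 to 62172742 led, with 17.8% in Large White and 99.6% in wild boar over 11 CG sites. Enshi black pig had 94.9% there. Chromosome 14 from 95324152 to 95324407 had 18.2% in Large White, 99.6% in wild boar and 97.9% in Enshi black pig. At both regions Large White was the breed that stood low. The level of Enshi black pig came from rows listed because it differed from Large White. A region on chromosome 7 from 31348142 to 31348349 with 20 CG sites also had Large White low, at 16.4%, with 96.7% in wild boar and 99.5% in Enshi black pig. Enshi black pig was on the low side with Large White on chromosome 6 from 49653320 to 49653611, where the levels were 16.4% in Large White, 97.8% in wild boar and 5.94% in Enshi black pig. Chromosome 15 from 29130201 to 29130737 had 15.5% in Large White and 95.8% in wild boar, and Enshi black pig was intermediate at 52.2% over the first 9 of its CG sites.

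Listed regions were short and of middling CG density. The median length was 164 bp, with an interquartile range of 92 to 266 bp, and the median region held 8 CG sites at 6.17 CG sites per 100 bp. The difference between the breeds was smaller in denser regions. In the 438 regions of at most 2 CG sites per 100 bp the median difference was 46.1 points, and 70.3% of them met the rule of 40 points. It was 37.1 points in the 1105 regions of 4 to 6 CG sites per 100 bp, where 42.4% met the rule. In the 317 regions of over 15 CG sites per 100 bp the median difference was 21.3 points and 2.21% met it.

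The lower level rose with density up to 10 CG sites per 100 bp, and above that the higher level fell. The median of the breed with the higher level was 87.1% in the sparsest class, 89.6% at 6 to 8 CG sites per 100 bp, 76.7% at 10 to 15 and 66.3% above 15. The median of the lower breed rose from 39.4% in the sparsest class to 52.0% at 8 to 10 CG sites per 100 bp and was 43.7% above 15. Intermediate levels in both breeds accordingly made up 7.76% of the sparsest and 47.6% of the densest class. Full contrasts of a low with a high level were found in 46 of the 438 sparsest regions, in 3 of the 858 regions of 10 to 15 CG sites per 100 bp and in 0 of the 317 densest. The share of regions higher in Large White showed no such course, and lay between 46.6% and 51.3% in all 7 classes.

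**Figure D2:**
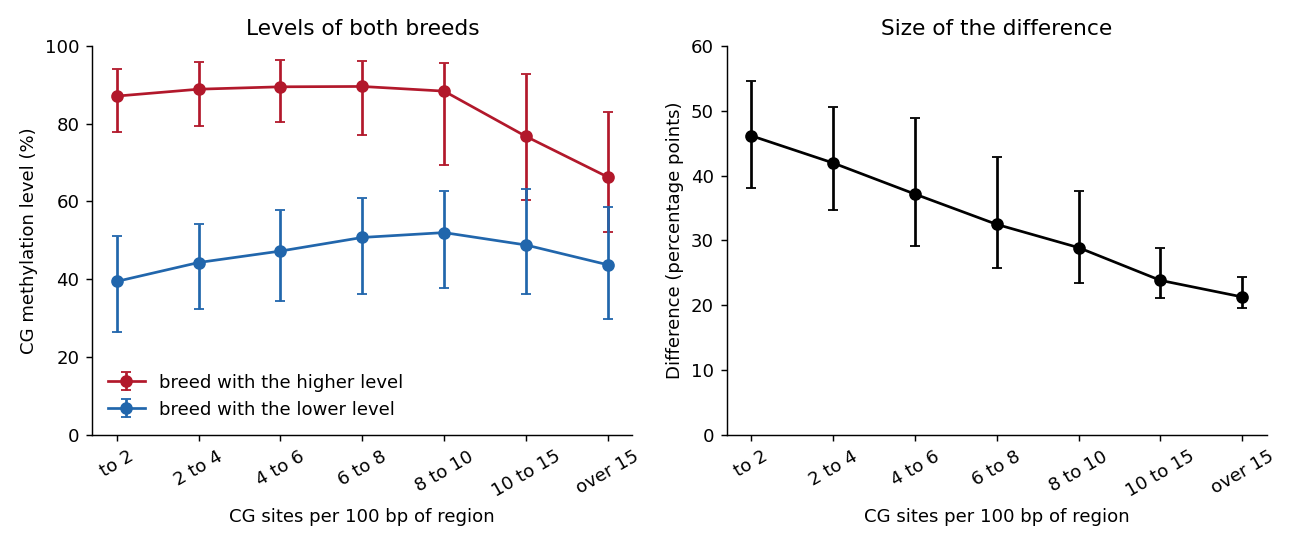
Methylation levels (left, percent) and the difference between the breeds (right, percentage points) by the number of CG sites per 100 bp of a region. Points are medians over the regions of a class and bars are quartiles. The median difference went from 46.1 points in the sparsest class to 21.3 points in the densest, where the higher level had dropped to 66.3%.

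The left panel by CG density shows the higher and the lower level of a region, whichever breed had them, drawing together in the densest classes. The right panel shows the narrowing of the gap over all 7 classes. Dense regions also held more CG sites, so the order was read again among regions of similar CG number. Among regions of 4 to 9 CG sites the median difference was 44.1 points at up to 4 CG sites per 100 bp, 36.3 points at 4 to 8 and 26.4 points above 8. Among regions of at least 20 CG sites it was 33.8 points (25 regions), 31.1 points and 24.1 points. The part of depth, smoothing of levels and the authors' threshold in this order was not tested.

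The region with the most CG sites lay on chromosome 12 from 20633853 to 20634555, with 125 CG sites in 703 bp. Its level was 62.2% in Large White and 21.0% in wild boar, and 49.5% in Enshi black pig over 120 of these sites. The next 4 were all higher in wild boar. Chromosome 4 had regions of 115 CG sites each from 10385517 to 10386178 (39.0% in Large White, 66.5% in wild boar) and from 118542330 to 118543097 (17.1% and 50.8%). On chromosome 13 the 113 CG sites from 126406490 to 126407514 had 41.2% and 64.3%, with no listed site among them. On chromosome 1 the 101 CG sites from 145958109 to 145958958 had 70.2% and 97.0%, and Enshi black pig had 48.0% over an overlapping stretch listed against wild boar.

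The densest region held 15 CG sites in 56 bp on chromosome 2 from 4447160 to 4447215 and had 71.8% in Large White and 53.0% in wild boar. All 5 densest regions differed by 18.7 to 20.8 points, and none of them held a listed site. The 5 sparsest regions of at least 10 CG sites were 2576 to 4567 bp long, and 4 of these differed by 39.2 to 52.7 points. The longest region of all ran for 5697 bp on chromosome 15 from 153940663 to 153946359, with 69 CG sites, 96.2% in Large White and 56.6% in wild boar. One of the 5 longest, 4883 bp on chromosome 8 from 51694179 to 51699061, rested on only 4 CG sites.

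Sites and regions were listed separately, and they overlapped in part. Of the listed sites 11178 (58.4%) lay inside a listed region, and 1980 regions (36.4%) held at least 1 listed site. These regions differed by a median of 47.9 points, against 27.3 points in the 3454 regions with no listed site. No listed site differed by less than 28.98 points, so the listing itself favours larger differences in regions that hold one. Regions with no listed site were denser in CG, with a median of 7.25 against 4.71 CG sites per 100 bp. The mean direction of the listed sites was that of the region in 1972 of the 1980. Listed sites were 43.3% of the CG sites of these regions, so this agreement is not a separate result. The 7970 sites outside regions had the sharper contrast, with a median difference of 66.4 points and median levels of 97.2% and 22.7%, against 51.1 points, 91.6% and 33.3% inside. Of the 622 sites that differed by at least 90 points, 615 lay outside regions.

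Listed sites came in tight runs. Linking sites at most 1 kb apart gave 7540 clusters, of which 4109 were single sites. The 288 clusters of at least 10 sites held 5567 sites, 29.1% of the total. The largest held 114 sites on chromosome 12 from 20633853 to 20634498 and lay in the region of 125 CG sites above. All its sites were higher in Large White, with mean levels of 62.7% and 20.4%. The next were 74 sites on chromosome 3 from 77548005 to 77548600 (31.5% in Large White, 74.2% in wild boar) and 69 sites on chromosome 12 from 46603642 to 46604506 (17.96% and 63.5%). A cluster of 57 sites on chromosome 11 from 4321190 to 4321595 had the widest contrast of the 10 largest, with 95.9% in Large White and 25.2% in wild boar.

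Direction was shared over short distances and little beyond. Of the 680 pairs of neighbouring listed sites 0.1 to 1 kb apart, 97.1% had the same direction, as had all pairs up to 100 bp apart. At 1 to 10 kb the share was 64.4% of 413 pairs, at 10 to 100 kb 54.5% of 2086 and at 0.1 to 1 Mb 53.5% of 4565. Neighbouring regions had the same direction in 87.0% of 276 pairs at up to 1 kb, in 60.3% of 292 pairs at 1 to 10 kb and in 53.2% of 1245 pairs at 10 to 100 kb. Of the pairs of sites up to 10 bp apart, 77.0% had the same pair of levels to within 1e-06 points. The share was 71.0% at 10 to 100 bp, 45.1% at 0.1 to 1 kb and 0.242% at 1 to 10 kb. Many sites up to 1 kb apart are therefore not separate measurements, and their shared direction is not a separate result.

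**Figure D3:**
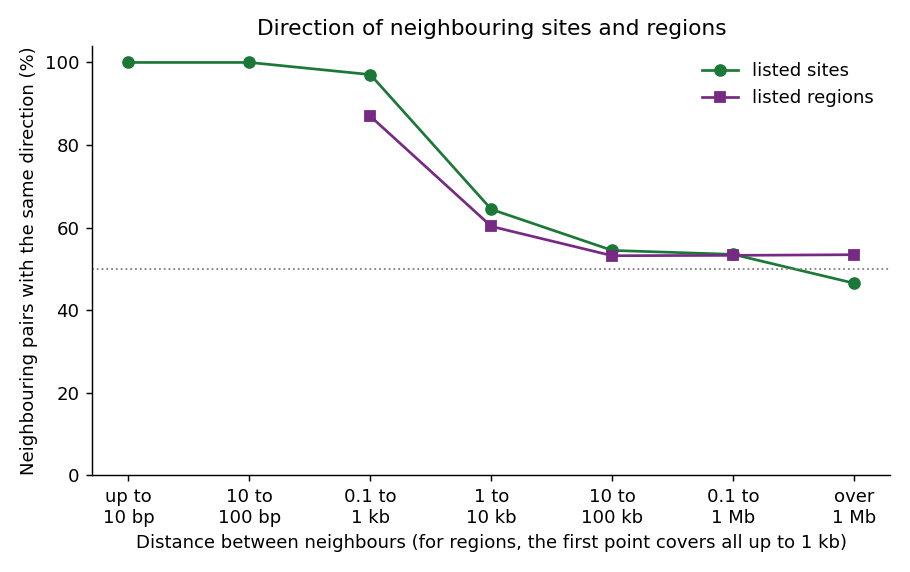
Share of neighbouring listed sites (circles) and regions (squares) with the same direction of difference, in percent, by the distance between the neighbours. The dotted line marks equal numbers of same and opposite directions. For sites the share was 97.1% at 0.1 to 1 kb and 64.4% at 1 to 10 kb, and both lines then lay near the dotted line.

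The plot of neighbours shows the drop between 1 kb and 10 kb for both kinds of row. Among the 3431 clusters of 2 or more sites, 20 held both directions, and 5 of the 20 had at least 10 sites. The one with the most sites was on chromosome 1 from 18162928 to 18163924. As a region of 51 CG sites it had nearly equal mean levels, 61.8% in Large White and 63.0% in wild boar. Its first 25 sites, from 18162928 to 18163260, had 94.9% in Large White and 31.3% in wild boar. After a gap of 261 bp, the other 26 sites, from 18163521 to 18163924, had 30.1% and 93.5%. The mean over the region thus hid a pair of opposite differences of over 60 points.

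The direction also switched in the other 4 clusters of at least 10 sites. On chromosome 1, 16 sites from 175824109 to 175824315 had 14.2% in Large White and 55.1% in wild boar, and 12 sites from 175824635 to 175824721 had 94.5% and 26.5%. On chromosome 9, 31 sites from 11606931 to 11607337 had 66.0% and 23.3%, and 9 sites from 11607736 to 11607843 had 40.6% and 96.9%. The switches on chromosome 12 (44 sites and 1) and chromosome 16 (16 sites and 2) were uneven. In all 5 clusters the switch fell in a gap of 261 to 399 bp without a listed site. Sites of nearly equal levels were not listed, so a gap at a switch is not a separate observation.

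On the scale of 100 kb, 2570 of the 5434 regions (47.3%) had no other region within 100 kb on either side. The densest group lay on chromosome 11 from 70624060 to 70696626, where 11 regions fell within 72.6 kb. All 11 were higher in Large White, with levels from 61.2% to 94.0% against 19.7% to 62.4% in wild boar, and all 12 listed sites in this span had the same direction. In the 500 kb on either side, 6 of 17 regions were higher in Large White. Within the span, the table of Enshi black pig with Large White listed 5 regions, in which the levels of Enshi black pig were 13.8% to 67.0% and those of Large White 61.5% to 92.5%. The table of Enshi black pig with wild boar listed 1 region, at 55.3% and 90.9%.

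The other 2 groups that held the most regions within 100 kb had mixed directions. On chromosome 2 from 149190557 to 149262374, 2 of 7 regions were higher in Large White, and on chromosome 6 from 54499987 to 54581809 it was 3 of 7. Consecutive regions in 1 direction formed 2436 runs, of which 244 had at least 5 regions, 118 in favour of Large White and 126 in favour of wild boar. The longest was 16 regions higher in wild boar on chromosome 7 from 91172682 to 102526618. A run of 15 regions higher in Large White lay on chromosome 6 from 145654460 to 151187508, and one of 15 higher in wild boar on chromosome 17 from 51165302 to 54419556.

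Direction varied widely between bins of 10 Mb. In the 249 bins with at least 20 listed sites, 8.33% to 90.9% of the sites were higher in Large White, with a median of 47.8% and quartiles of 36.8% and 61.3%. At least 75% of sites were higher in Large White in 14 bins and in wild boar in 16. Adjacent bins lay on the same side of an even split in 116 of 230 pairs (50.4%). Single clusters set several of the extremes. In the bins leaning to 1 breed, the largest cluster held a median of 25.2% of the sites, against 17.2% in the other 219 bins. Leaning bins also held fewer sites, with a median of 56 against 68, and fewer clusters, 24 against 29. The part of these lower counts in the lean was not tested. With at most 1 site counted per 1 kb, 6 of the 204 bins with at least 20 sites left leaned, 2 to Large White and 4 to wild boar. Of the 18 leaning bins among these 204, 5 leaned the same way after thinning.

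**Figure D4:**
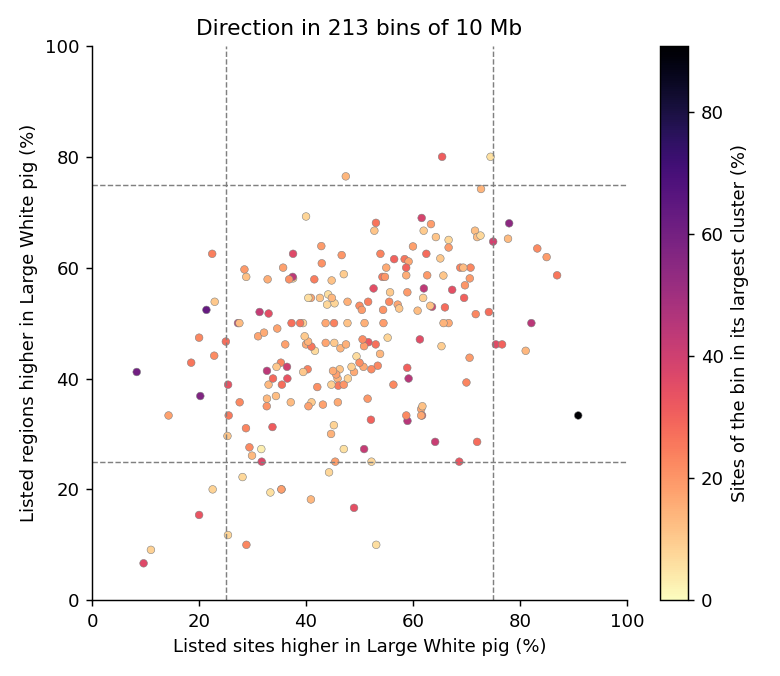
Share of listed sites (x axis) and of listed regions (y axis) that were higher in Large White, in percent, in the 213 bins of 10 Mb with at least 20 sites and 10 regions. Each point is 1 bin, coloured by the share of its sites that lie in its largest cluster, and dashed lines mark 25% and 75%. The bin furthest to the right had 90.9% of its sites but 33.3% of its regions higher in Large White, and its largest cluster held 90.9% of its sites.

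The plot of bins sets the share of sites beside that of regions, and its darkest points are bins ruled by 1 cluster. The bin furthest towards Large White was 150 to 160 Mb on chromosome 14, where 40 of its 44 sites formed 1 cluster from 152230204 to 152230485. The bin furthest towards wild boar was 40 to 50 Mb on the same chromosome, with 8.33% of 48 sites higher in Large White, 29 of them in 1 cluster, but 41.2% of its 17 regions. Its region with the most CG sites, 67 from 46128689 to 46129200, was higher in Large White, at 51.4% against 27.8%. In this bin, sites and regions therefore gave different pictures.

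Of the 25 leaning bins with at least 10 regions, 17 had their regions on the same side of an even split. On chromosome 7 from 90 to 100 Mb, 9.62% of 52 sites and 6.67% of 15 regions were higher in Large White, although with 1 site counted per 1 kb it was 29.4% of 17. On chromosome 13 from 180 to 190 Mb it was 11.0% of 91 sites, 9.09% of 11 regions and 16% of 50 sites after thinning, and its largest cluster held only 8 sites. The region with the most CG sites of that bin, 13 from 188928585 to 188928721, had 55.1% in Large White and 85.2% in wild boar. The last bin of chromosome 13, from 210 Mb, leaned to Large White, with 87.0% of 23 sites and 58.6% of 29 regions. Its region with the most CG sites had 62.7% in Large White and 40.5% in wild boar. That of the bin furthest towards Large White, on chromosome 14, had 45.9% and 25.3%. On chromosome 9 from 150 Mb, 86.2% of 29 sites were higher in Large White. The region with the most CG sites there was higher in wild boar, at 65.8% in Large White and 84.7% in wild boar. By regions, 3 of 213 bins leaned to Large White and 18 to wild boar.

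Among chromosomes, chromosome 12 had the most listed sites and regions for its length. It had 14.96 listed sites and 4.51 listed regions per Mb, against medians over the 18 chromosomes of 7.70 and 2.36. Of its sites 65.6% were higher in Large White, 58.8% with 1 site counted per 1 kb, and of its regions 61.5%. In 6 of its 7 bins more than 50% of sites were higher in Large White, but the excess was uneven along its length. The share was 83.3% at 0 to 10 Mb, 60% at 10 to 20 Mb, 78.0% at 20 to 30 Mb and 63.2% at 30 to 40 Mb. It was then 53.1% at 40 to 50 Mb, 50.6% at 50 to 60 Mb and 37.5% from 60 Mb. At 20 to 30 Mb, 1 cluster held 114 of the 209 sites. Chromosome 18 had 58.7% of sites and 57.5% of regions higher in Large White, and with 1 site counted per 1 kb its share, 63.5%, and that of chromosome 5, 59.5%, were above that of chromosome 12. Chromosome 14 was lowest by sites, with 40.8%, and chromosome 17 by regions, with 37.9%.

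Listed regions were denser towards the ends of chromosomes, with the last listed position standing for the far end. There were 4.65 regions per Mb within 2 Mb of an end, 4.69 at 2 to 5 Mb, 2.89 at 10 to 20 Mb and 1.40 beyond 40 Mb. In 17 of 18 chromosomes the outer 10 Mb held more regions per Mb than the rest, the exception being chromosome 17. Clusters of sites had no such course, with 3.17 per Mb within 2 Mb, 3.71 at 10 to 20 Mb and 2.54 beyond 40 Mb. The median CG density of regions was 7.83 CG sites per 100 bp within 2 Mb, 5.58 at 20 to 40 Mb and again higher, 6.56, beyond 40 Mb. Their median difference was 28.0, 36.6 and 33.1 points in these classes. The density of CG sites in the genome itself was not analysed here.

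**Figure D5:**
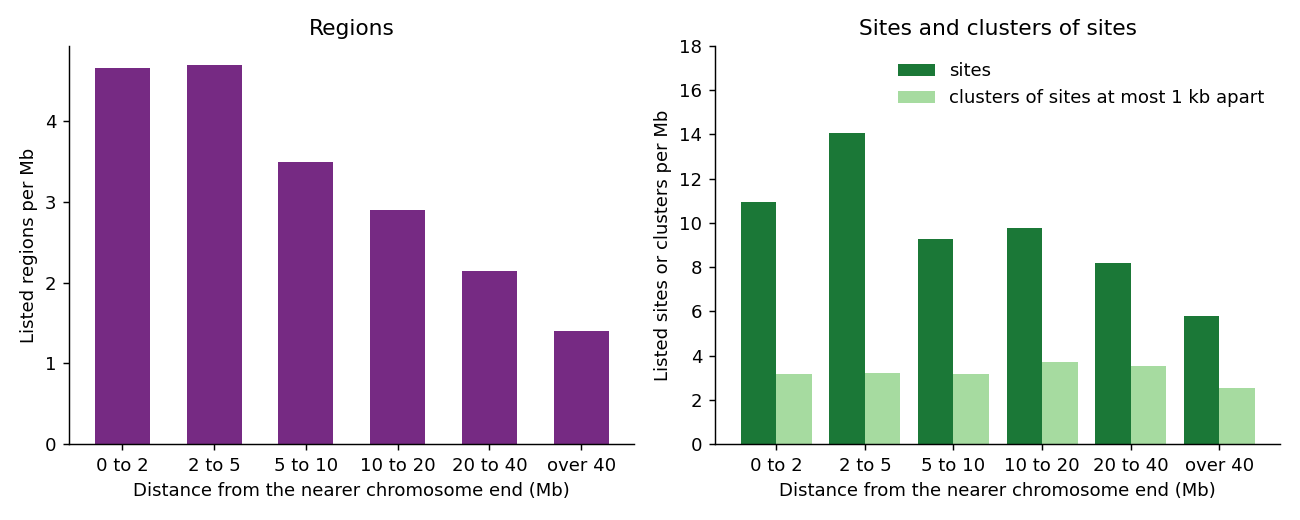
Listed regions per Mb (left) and listed sites and clusters of sites per Mb (right) by the distance from the nearer chromosome end in Mb, over chromosomes 1 to 18. Regions went from 4.65 per Mb within 2 Mb of an end to 1.40 beyond 40 Mb, and sites from 10.9 to 5.81. Clusters of sites stayed between 2.54 and 3.71 per Mb.

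The bars by distance show the fall of regions at each step beyond 5 Mb. Within 10 Mb of an end 52.8% of 1471 regions were higher in Large White, against 47.6% of 3963 elsewhere, and the values without chromosome 12 were 52.5% and 46.8%. This order was not shared by all chromosomes, since 11 of 18 had it for regions and 10 of 18 for sites.

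Gene models in the build of the files were at hand only for some loci, mainly on chromosome 1, so genes are named only there and at ACTA1. Of 53 loci with a symbol, 5 had a region in the gene or in the 2 kb upstream of it. TAB2, which encodes an adaptor that links TAK1 kinase to inflammatory receptors, had a region over its upstream part and first exon from 18929575 to 18930380. Over 78 CG sites this region had 43.5% in Large White and 90.9% in wild boar, and Enshi black pig had 61.7% over 62 of them. The other gene-start regions were higher in Large White. PPP1R14C, an inhibitor of protein phosphatase 1, had one 363 bp upstream, from 18079348 to 18079793, with 62.3% in Large White, 36.3% in wild boar and 41.1% in Enshi black pig. RNF152, a ubiquitin ligase, had one over its upstream part and first exon from 177131687 to 177131893, with 84.2% and 62.2%.

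Both regions inside introns of these models were higher in Large White and rested on few CG sites. The model named SRP14, after a subunit of the signal recognition particle, ran from 146252439 to 146470242 and may merge several loci, so whether the region lies in an SRP14 intron is uncertain. Its 5 CG sites from 146258686 to 146258745 had 99.6% in Large White and 75.9% in wild boar. In CDIN1, a gene linked to congenital dyserythropoietic anaemia, 4 CG sites from 150216189 to 150216293 had 99.2% and 48.8%, with 98.7% in Enshi black pig. At ACTA1, the skeletal muscle actin gene on chromosome 14, 10 CG sites from 65237848 to 65237931 had 67.3% in Large White and 47.0% in wild boar. The model used for this gene ran from 65236478 to 65237851, so the region overlapped only its edge. The text of the study gives a wider locus for ACTA1, which contains the region. Of these 6 regions, those at TAB2 and CDIN1 met the rule of 40 points, which 34.6% of all 5434 listed regions met.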

How the data were processed

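Liver methylomes of Large White pig and Chinese wild boar were compared, 1 per breed. The authors aligned bisulfite reads (Bismark 0.15.0 and build Sscrofa10.2, per the submitters' processing notes) and deposited, for each pair of breeds, listed sites and regions with a methylation level per breed as a fraction from 0 to 1. Sources used here name neither the caller of these lists nor its thresholds. The authors' columns of differences, standard errors, statistics, p-values and false discovery rates were not used. Neither were coverage or counts analysed here, so no interval that needs depth is given.

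The breed of each column was taken from the order of breed names in each table. This was checked at regions with the same bounds in a second table: the median gap between levels was 0.0105 points for Large White (400 regions) and 0.00968 points for wild boar (449 regions), and 45.9 and 43.9 points with the columns swapped. The largest gap was 25.6 points for Large White and 16.7 points for wild boar, so the level of a breed can differ between comparisons. Columns of samples left unused numbered 0.

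Levels were multiplied into percent, and CG density was CG sites over length. Sites up to 1 kb apart were linked into clusters, and chromosomes were divided into bins of 10 Mb. Calculations used Python 3.11.15, numpy 2.4.6, pandas 2.3.3, scipy 1.17.1 and matplotlib 3.10.9, and were tested on simulated data (20 of 20 tables recovered). No test was made between breeds.

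Members and lists were chosen with earlier results of these data known. Regions were named by rule: the 5 largest differences per direction, and the 5 densest and sparsest, among those of at least 10 CG sites; the 5 with most CG sites; the 5 longest; the leading regions of the 3 bins furthest to each side; and the 3 densest groups. Some of these were given by range only or without positions, and some were left out. Regions that switched direction were chosen after their values were seen. Genes were those with a symbol among 216 loci of chromosome 1 in the study's gene models, and ACTA1. Lists of liver, lipid, growth and imprinted genes could not be read without coordinates in this build. Alternatives were other thresholds on level, size, length and CG number, thinning of sites, other bins, and the inclusion of the X chromosome and scaffolds.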

Additional observations from a re-analysis of the deposited data

How the results depend on the processing

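With 1 methylome per breed, replicate error could not be estimated, and unknown depth limits every level. No paired analysis was possible because only 1 methylome stood for each breed. Of 25 alternatives over 9 results, 7 stayed within the interval or margin of the value reported and 18 moved. The intervals, at 95%, counted each listed row as a separate measurement, although many neighbouring sites and some neighbouring regions were not. They serve only as a yardstick of size and do not measure variation between animals. The share of sites higher in Large White was 49.6%, and it was 48.1% with 1 site per 1 kb, 50.7% with the X chromosome and scaffolds, and 48.2% over clusters. For regions it was 49.02%, and 47.7% at 10 or more CG sites, 47.2% at 200 bp or more and 50.8% with the X chromosome and scaffolds. Both shares thus passed to the other side of 50% with the X chromosome and scaffolds. Median density was 6.17 CG sites per 100 bp, 8.61 at 10 or more CG sites and 5.26 when intervals between CG sites were counted. The higher level was above 75% in 72.4% of regions (60.2% at 10 or more CG sites) and above 80% in 65.3%. The lower level was under 25% in 13.5% (12.4% at 10 or more CG sites) and under 20% in 8.43%. Neighbouring sites up to 1 kb apart shared direction in 99.8% of pairs, 99.4% without pairs of equal levels and 64.4% at 1 to 10 kb. Neighbouring regions up to 10 kb apart did so in 73.2%, and in 53.2% at 10 to 100 kb. Leaning bins numbered 30, and 100 with bins of 5 Mb, 18 at 50 or more sites and 6 with 1 site per 1 kb. They were 39 with bins shifted by 5 Mb, which, like the count over clusters, was chosen after seeing the data.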

Other observations

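Loci that the study had examined by reverse transcription PCR were looked up in the list of the pair. Of 13 loci with coordinates, 12 lay on chromosomes 1 to 18, and 0 regions of Large White against wild boar fell within 2 kb of them. The smallest difference of any region was 0.840 points, on chromosome 6 from 102794807 to 102795471, with 65.1% in Large White and 65.9% in wild boar over 4 CG sites. In all, 12 regions differed by under 10 points, whereas no listed site did.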
